A study of Mus musculus with 2 samples.

Results

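Smooth muscle spots were 100 of the 2263 tissue-covered positions in 2 spatially sequenced sections of mouse back skin, 50 in each section. In each section, spots with fewer than 500 unique molecular identifiers (UMIs, tags that each mark 1 captured molecule) were left out. The remaining spots were ranked by the summed UMIs of Acta2, Actg2, Cnn1, Myh11 and Tagln over all UMIs of the spot, and the first 50 were taken, with ties going to the spot with more UMIs. These 5 genes are called the rule genes. Their measured values chose the spots, so their levels are given as a description only.

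A first section came from an S1pr2 fl/fl mouse (S1pr2 f/f in the labels), whose S1pr2 gene, encoding a sphingosine 1-phosphate receptor, is flanked by loxP sites. The other came from an S1pr2 fl/fl K14-Cre mouse, which carries the same floxed gene and in addition Cre recombinase under the keratin 14 promoter, which is active in keratinocytes. Both mice were 8 weeks old, and their depilated back skin received 62.5 mg of 5% imiquimod (IMQ) cream each day for 7 days, a treatment that gives psoriasis-like inflammation. Each genotype was 1 section, so genotype, animal, section and library cannot be told apart. No untreated section was analysed here, no test between the sections was possible, and spots of 1 section are not replicates. All intervals are 95% intervals and cover counting error only.

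Smooth muscle in skin lies in the walls of arteries, arterioles and veins, in the arrector pili muscles that raise hairs, and in the sheath around hair follicles. It contracts when myosin light chain kinase, switched on by calcium and calmodulin, phosphorylates the regulatory light chain of smooth muscle myosin, and it relaxes when myosin phosphatase removes that phosphate. Many of its contractile genes are driven by serum response factor (SRF) with its partner myocardin, which bind a DNA motif named the CArG box.

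A Visium spot is a small region of tissue that can hold several cells of different types, so the spots are described by their leading genes and not as cells. In S1pr2 fl/fl, 5315351 UMIs were counted over 1282 spots, and in S1pr2 fl/fl K14-Cre (K14-Cre for short) 2845826 UMIs over 981 spots. Both spot numbers are above those that the methods of the study give for spots under tissue. The minimum kept 1096 and 947 spots. The smooth muscle spots held a median of 3775 UMIs in S1pr2 fl/fl, from 519 to 10168, against 4341 in the 1046 remaining spots. In K14-Cre they held a median of 2780.5 UMIs, from 506 to 8519, against 2375 in the 897 remaining spots. The sections shared 357 position barcodes, which mark places on the array and not cells, and 2 of these were smooth muscle spots in both.

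S1pr2 itself was sparse in the smooth muscle spots, with 6 UMIs in S1pr2 fl/fl and 7 in K14-Cre. Its level was 30.5 counts per 1000000 UMIs (CPM) in S1pr2 fl/fl and 44.7 CPM in K14-Cre, against 28.9 and 17.5 CPM in the remaining spots. The ratio of the smooth muscle spots over the remaining spots was 1.05 (0.381 to 2.35) and 2.55 (0.971 to 5.67). These intervals are wide and both include 1. Whether the probes for S1pr2 lie in the deleted part of the gene is not given in the sources used here.

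The share of rule gene UMIs was low even in the chosen spots. It was 1.38% in the highest spot of S1pr2 fl/fl, 0.181% in the median smooth muscle spot and 0.122% in the last one, which held 6 rule gene UMIs of 4923. The next spot, just outside, had 0.121%, or 1 UMI of 827. In K14-Cre the highest, median and last shares were 1.35%, 0.208% and 0.141%, the last from 12 of 8519 UMIs, and the next spot had 0.140%, or 6 of 4279. The values therefore ran on without a gap across the limit. A median smooth muscle spot held 6 rule gene UMIs in S1pr2 fl/fl, from 1 to 68, and 6.5 in K14-Cre, from 1 to 36. Of the 50 spots, 15 in S1pr2 fl/fl and 9 in K14-Cre held at most 3 such UMIs, and 4 and 2 of these held only 1. Conversely, 15 and 16 spots held at least 10. The smooth muscle spots took 39.3% of all rule gene UMIs in 4.56% of the kept spots of S1pr2 fl/fl, and 46.7% in 5.28% of the kept spots of K14-Cre. A rule gene UMI was also found in 398 remaining spots of S1pr2 fl/fl (38.0%) and in 217 of K14-Cre (24.2%).

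Tagln, the actin-associated protein transgelin on chromosome 9 (45929628 to 45936058), gave the most rule gene UMIs in both sections, 213 in the smooth muscle spots of S1pr2 fl/fl and 240 in those of K14-Cre. Coordinates are on the GRCm38 assembly. Acta2, the smooth muscle alpha actin on chromosome 19 (34240336 to 34255585), gave 177 and 73 UMIs. Myh11, the smooth muscle myosin heavy chain on chromosome 16 (14194527 to 14292188), gave 99 and 41. Cnn1, calponin, which binds actin and slows myosin, lies on chromosome 9 (22099221 to 22109221) and gave 35 and 36. Actg2, the gamma smooth muscle actin on chromosome 6 (83512909 to 83536251), gave 29 and 11. The K14-Cre spots were thus chosen more by Tagln, and those of S1pr2 fl/fl more evenly by the thick and thin filament genes. At least 2 rule genes were present in 39 spots of S1pr2 fl/fl and 38 of K14-Cre, at least 3 in 27 and 24, and all 5 in 8 and 0. A single rule gene chose 11 and 12 spots.

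**Figure D1:**
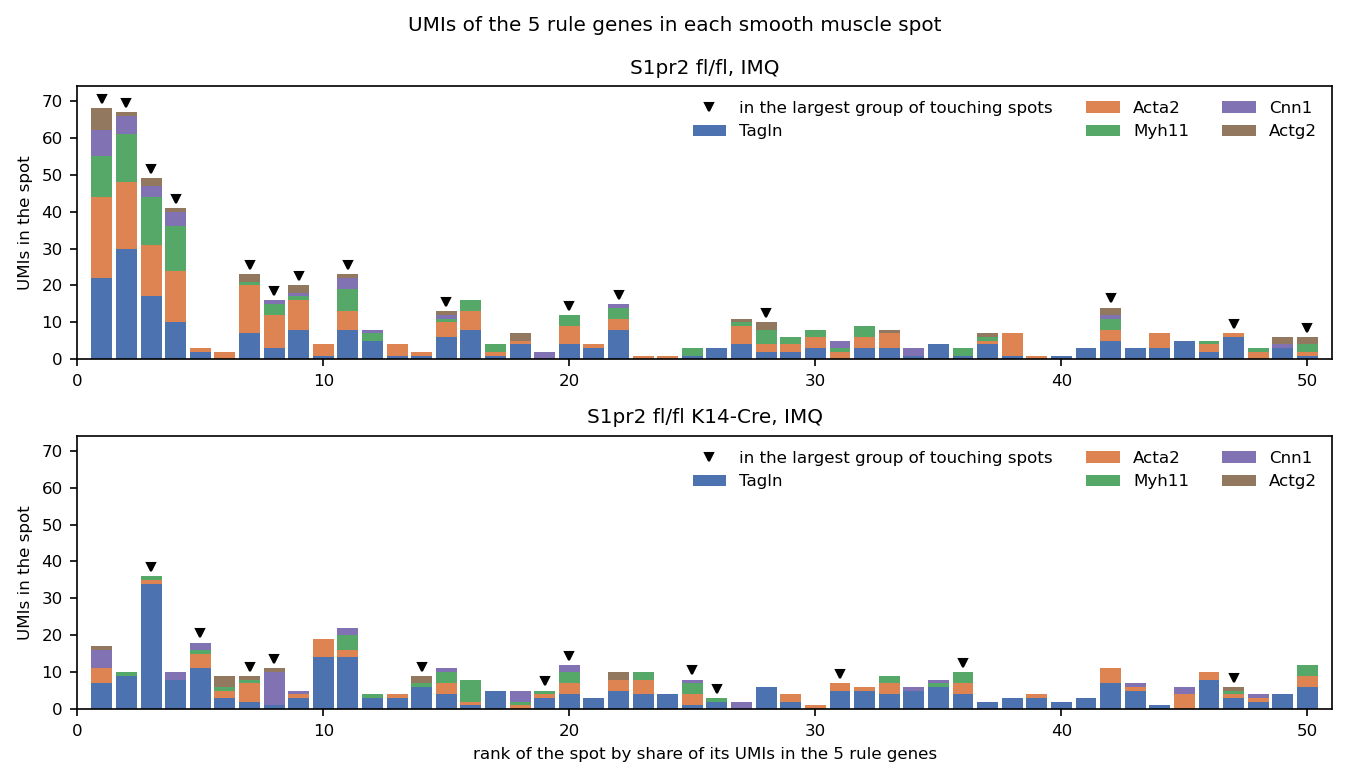
UMIs of the 5 rule genes in each of the 50 smooth muscle spots of each section (horizontal axis, spots ordered by their share of rule gene UMIs; vertical axis, UMIs, stacked by gene). The highest spot holds 68 rule gene UMIs in S1pr2 fl/fl and the highest in K14-Cre holds 36, and many spots at the right rest on a few UMIs.

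Each rule gene was also measured in spots that it had not helped to choose. For this, the spots were ranked by the other 4 genes and the left-out gene was compared between the first 50 and all other kept spots. The ratio in S1pr2 fl/fl was 11.5 (9.34 to 14.02) for Acta2, 13.8 (8.16 to 22.9) for Actg2, 15.3 (9.20 to 24.9) for Cnn1, 12.1 (9.25 to 15.7) for Myh11 and 13.9 (11.5 to 16.8) for Tagln. In K14-Cre it was 9.70 (6.87 to 13.6) for Acta2, 11.4 (4.58 to 27.1) for Actg2, 5.60 (3.09 to 9.72) for Cnn1, 7.31 (4.53 to 11.5) for Myh11 and 6.42 (5.19 to 7.89) for Tagln. Each of the 5 genes was thus several-fold higher where the other 4 were high, in both sections.

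Genes of the contractile machine that did not enter the rule were next compared between the smooth muscle spots and the remaining spots of the same section. Since a spot mixes cells, a lower level can mean fewer cells of a type or less of the RNA per cell, and these cannot be told apart. Myl9, the regulatory light chain of smooth muscle myosin, was high in both sections. It had 60 UMIs in the smooth muscle spots of S1pr2 fl/fl and 49 in those of K14-Cre, with a median of 0 per spot and a highest value of 11 and 8. Its ratio over the remaining spots was 8.29 (6.09 to 11.1) in S1pr2 fl/fl and 7.22 (5.06 to 10.2) in K14-Cre. In S1pr2 fl/fl, 51 of the 60 UMIs lay in 1 group of touching spots, without which the value was 2.46 (1.11 to 4.78). A Myl9 UMI was present in 40% and 30% of the smooth muscle spots and in 12.0% and 7.02% of the remaining spots. In the spots richest in keratinocyte genes, taken as a background, the share was 2.73% of 110 spots and 3.16% of 95, with median depths of 2845 and 2346 UMIs. The share in the smooth muscle spots was thus well above that background in both sections.

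The promoter of Myl9 is shown because Myl9 had the highest ratio of the contractile genes in K14-Cre and the highest after Lmod1 in S1pr2 fl/fl, and because its window holds a CArG box. The sequence is that of RefSeq on GRCm38.p6 (the submitters' processing notes name mm10), chr2:156775214-156775463 on the plus strand, the 250 bases before the annotated start of the gene, 5′ to 3′, with the CArG box in capitals.
Myl9: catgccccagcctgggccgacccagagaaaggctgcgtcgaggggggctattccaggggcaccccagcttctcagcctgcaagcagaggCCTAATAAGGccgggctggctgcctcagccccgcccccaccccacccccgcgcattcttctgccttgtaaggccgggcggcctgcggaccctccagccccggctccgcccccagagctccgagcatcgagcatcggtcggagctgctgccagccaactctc
The box begins at position -161 from the start. Both strands were searched for the strict form of the box, in which the letters between CC and GG are all A or T. It was found in 439 of 27025 genes with a window (1.62%), in 2 of the 23 contractile genes (8.70%), Myl9 and Vcl, and in 2 of the 16 skeletal muscle genes (12.5%). Forms with a G or C inside the box, which known muscle promoters also carry, were not counted. A match describes these letters and is no evidence of binding, and no match says only that the letters are not in this window. The strict box was in 0 of the 2 rule genes with a window, Acta2 and Cnn1, and in 0 of 23 mural and endothelial genes. No window was at hand for Tagln, Myh11 and Actg2.

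Genes for a kinase and for a phosphatase inhibitor of the contractile machine were also higher. Mylk, myosin light chain kinase, had 31 and 21 UMIs in the smooth muscle spots, at ratios of 5.48 (3.60 to 8.12) in S1pr2 fl/fl and 3.95 (2.33 to 6.40) in K14-Cre. Ppp1r14a, an inhibitor of myosin phosphatase, had 55 and 70 UMIs at 5.05 (3.72 to 6.77) and 4.73 (3.58 to 6.19). Both bear on the phosphorylation of the light chain that Myl9 encodes. Lmod1, leiomodin, which nucleates actin filaments, was at 11.0 (6.17 to 18.9) in S1pr2 fl/fl from 20 UMIs, and at 1.37 (0.359 to 3.73) in K14-Cre from 4 UMIs, where the interval includes 1. Cald1, Flna and Csrp1 were higher as well. Cald1, caldesmon, was at 3.58 (2.77 to 4.58) and 2.06 (1.51 to 2.76). Flna, the actin cross-linker filamin A, was at 2.57 (2.13 to 3.07) and 3.86 (3.21 to 4.62), and Csrp1, a LIM domain protein of smooth muscle, at 2.62 (2.06 to 3.30) and 2.10 (1.62 to 2.69). All 3 intervals lie above 1 in both sections.

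Of the 25 contractile genes, 20 reached 200 UMIs in each section, the minimum for a gene to be compared. In S1pr2 fl/fl, 11 of the 20 were at least 2-fold higher in the smooth muscle spots and none was at most 0.5-fold, while 5.73% of all 5481 compared genes were at least 2-fold higher and 10.8% at most 0.5-fold. In K14-Cre, 5 of 20 were at least 2-fold higher and 1, Casq2, a calcium store protein of striated muscle, was lower, against 5.31% and 11.7% of 2843 genes. The median ratio of the list was 2.03 and 1.22, against 1.00 and 1.01 over all compared genes. The summed list had a ratio of 1.89 (1.82 to 1.97) and 1.22 (1.17 to 1.27), and 3 genes that skeletal muscle shares set much of it. Tpm2 and Tpm1, tropomyosins, and Des, desmin, together held more UMIs than the other 22 genes. Des was at 1.59 (1.45 to 1.74) in S1pr2 fl/fl and 0.987 (0.904 to 1.08) in K14-Cre. Without these 3 the ratio was 2.31 (2.16 to 2.48) and 1.85 (1.72 to 1.98). Against remaining spots weighted to the same distances from the surface, the whole list was under 1, at 0.917 and 0.956, while the 22 genes were above it, at 1.57 and 1.61.

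**Figure D2:**
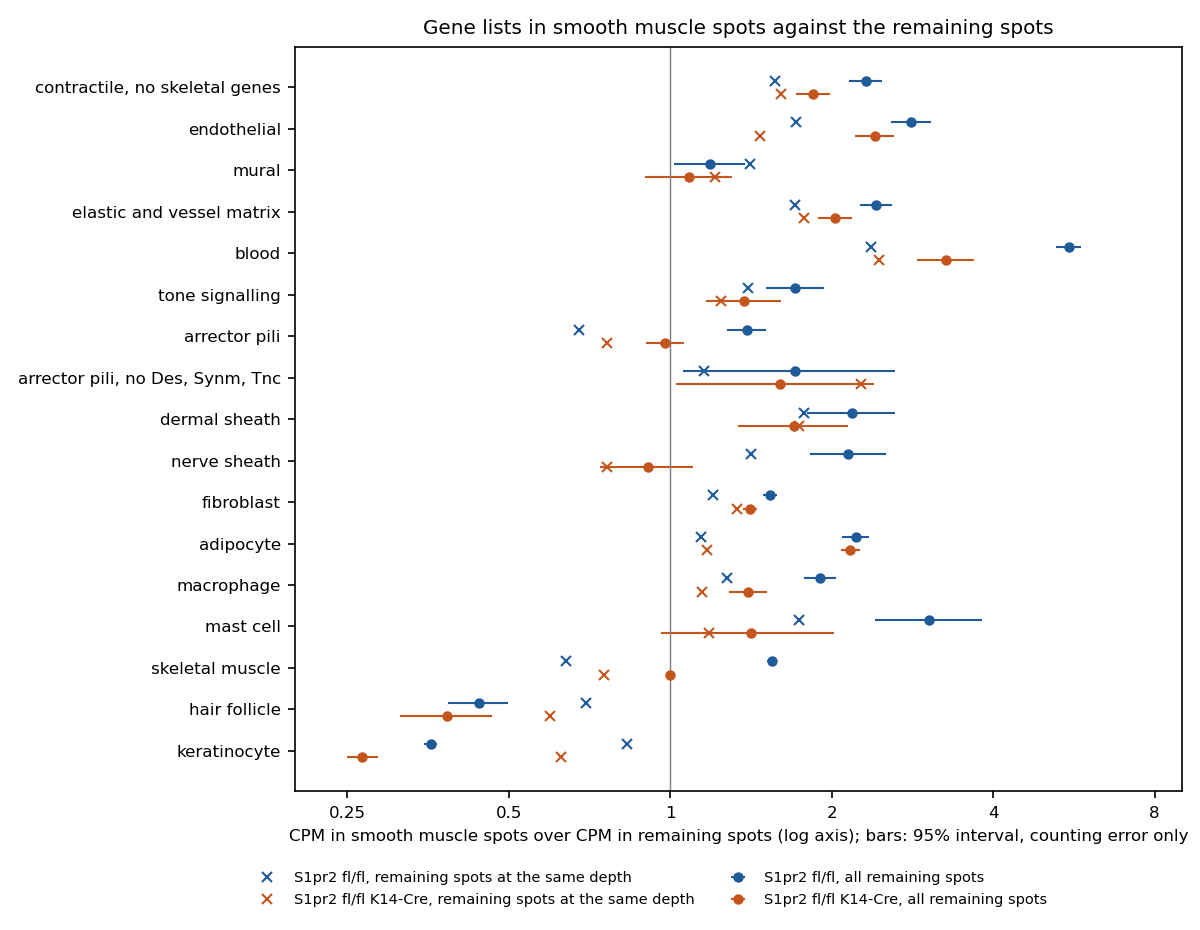
Ratio of the smooth muscle spots over the remaining spots for each gene list in both sections (horizontal axis, ratio on a log scale; points, ratio of summed CPM; lines, 95% counting intervals), with crosses for the ratio over remaining spots weighted to the same distances from the surface. Endothelial, blood and elastic fibre lists lie to the right of 1 in both sections, and the keratinocyte list lies to the left.

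The regulators of smooth muscle transcription, summed as a list, had an interval above 1 in neither section. The 10 genes had 159 and 76 UMIs, at ratios of 1.02 (0.865 to 1.20) in S1pr2 fl/fl and 0.719 (0.564 to 0.904) in K14-Cre. In S1pr2 fl/fl the largest group of touching spots was at 1.31 (1.06 to 1.59) and the other 35 smooth muscle spots at 0.738 (0.559 to 0.956). Chemosensory receptor genes, which skin should hardly express, were at 2650 and 5302 CPM, against 2728 and 7459 CPM in the remaining spots. The part of this background was not tested. Myocd, myocardin, had 3 and 1 UMIs and Srf had 17 and 9, the latter at ratios of 1.19 (0.686 to 1.93) and 1.02 (0.457 to 1.99). In S1pr2 fl/fl, 16 of the 17 Srf UMIs lay in the largest group, without which the value was 0.139 (0.00350 to 0.778). Mef2c, a transcription factor of muscle and of endothelium, stood at 2.36 (1.70 to 3.20) with 45 UMIs in S1pr2 fl/fl and at 0.330 (0.120 to 0.726) with 6 UMIs in K14-Cre. The sections were thus on opposite sides of 1 for this gene, a difference that was not tested. Among the receptors and enzymes that set smooth muscle tone, P2rx1, the ATP-gated channel of sympathetic contraction, was at 10.1 (4.56 to 21.0) from 11 UMIs in S1pr2 fl/fl and at 2.67 (0.813 to 6.91) from 5 in K14-Cre. S1pr1, the endothelial sphingosine 1-phosphate receptor, was at 4.57 (2.80 to 7.16) and 2.67 (1.32 to 4.93), from 23 and 12 UMIs. The whole list of 25 tone genes had a ratio of 1.71 (1.51 to 1.94) and 1.37 (1.17 to 1.61).

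Other genes were then used to tell vessel wall from arrector pili. Endothelial genes were higher in the smooth muscle spots of both sections. The 22 genes summed to 601 UMIs in S1pr2 fl/fl and 665 in K14-Cre, at ratios of 2.82 (2.59 to 3.06) and 2.40 (2.21 to 2.61). Only 6 and 3 of the genes were compared, too few to set against the shares over all genes. At least 2-fold higher were 5 of the 6 and 3 of the 3, against 5.73% and 5.31% of all compared genes. Fabp4, a lipid carrier of capillary endothelium and of adipocytes, gave 226 and 307 of the summed endothelial UMIs. Vwf, the clotting factor stored by endothelium, was at 5.47 (3.71 to 7.87) and 5.75 (3.85 to 8.42), and was present in 34% and 32% of the smooth muscle spots against 10.6% and 7.02% of the remaining spots. In the keratinocyte-richest spots that share was 0.909% and 2.11%. Plvap, of fenestrated capillaries and veins, was at 2.02 (1.50 to 2.67) and 2.57 (2.02 to 3.23), and Cdh5, VE-cadherin, at 2.52 (1.41 to 4.22) and 3.70 (2.33 to 5.70). For Cdh5, 13 of the 16 UMIs of S1pr2 fl/fl lay in 1 group of touching spots, without which the value was 0.937 (0.191 to 2.79). Pecam1, a junction protein of all endothelium, was at 4.85 (3.19 to 7.15) in S1pr2 fl/fl but rested on 6 UMIs in K14-Cre, at 1.83 (0.645 to 4.24). Gja5, the arterial connexin, was at 14.8 (7.46 to 28.2) from 16 UMIs in S1pr2 fl/fl and at 1.90 (0.491 to 5.30) from 4 in K14-Cre. The same group held 13 of those 16 Gja5 UMIs, and without it the value was 5.49 (1.07 to 17.8). At matched distances from the surface the endothelial ratio was 1.72 and 1.47.

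Genes of the vessel wall matrix were higher as well. Mgp, matrix Gla protein, which smooth muscle cells of arteries make and which keeps their wall free of calcium, had 137 UMIs in 24 smooth muscle spots of S1pr2 fl/fl and 83 UMIs in 20 of K14-Cre. Its ratio was 13.3 (10.7 to 16.4) and 5.28 (4.07 to 6.77), and it was present in 0 of the 110 keratinocyte-richest spots of S1pr2 fl/fl, which, at the limit of 3 counts that a count of 0 allows, leaves a share of up to 2.73%, and in 2.11% of those of K14-Cre. Eln, elastin, was at 5.17 (4.31 to 6.17) and 2.68 (2.16 to 3.29). Ltbp4, which helps to assemble elastic fibres, was at 3.51 (2.63 to 4.60) and 3.15 (2.24 to 4.35), and Fbn1, fibrillin, at 1.87 (1.48 to 2.34) and 1.83 (1.44 to 2.30). The 19 genes of elastic fibres and vessel matrix together had a ratio of 2.42 (2.26 to 2.59) and 2.03 (1.89 to 2.18), and 1.71 and 1.77 at matched distances. Elastic fibres also belong to dermis, which was not separated from vessel wall here.

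Mural genes, which mark pericytes and small-vessel muscle, gave a weaker picture. Their 16 genes had 180 and 123 UMIs at ratios of 1.19 (1.02 to 1.38) and 1.08 (0.896 to 1.30), and of 1.41 and 1.21 at matched distances. Only 4 and 3 of the genes were compared, too few to set against the shares over all genes. None was at least 2-fold higher, against 5.73% and 5.31% of all compared genes. In each section 1 was at most 0.5-fold, against 10.8% and 11.7%. That gene was Ndufa4l2, a mitochondrial protein of pericytes, at 0.452 (0.317 to 0.625) and 0.416 (0.241 to 0.671), with 37 and 17 UMIs. Notch3, the mural Notch receptor, was in 20% of the smooth muscle spots in both sections, but also in 19.7% and 13.0% of the remaining spots and in 21.8% and 21.1% of the keratinocyte-richest spots. It was thus about as frequent in the keratinocyte-richest spots as in the smooth muscle spots. Higd1b and Heyl, found in pericytes and mural cells, were higher on few UMIs. Higd1b was at 5.65 (2.10 to 13.0) and 5.70 (2.70 to 11.2), and Heyl at 3.48 (1.84 to 6.10) and 2.57 (1.27 to 4.73), though 12 of the 14 Heyl UMIs of S1pr2 fl/fl lay in 1 group of spots, and without it the value was 0.985 (0.118 to 3.65). Rgs5, a common pericyte marker, was at 1.95 (1.12 to 3.19) and 0.881 (0.416 to 1.66).

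Red cell genes were also high in the smooth muscle spots. The blood list gave 1678 UMIs in S1pr2 fl/fl and 321 in K14-Cre, at ratios of 5.54 (5.25 to 5.84) and 3.27 (2.89 to 3.68). A single spot held from 0 to 288 of these UMIs in S1pr2 fl/fl, with a median of 6, and from 0 to 77 in K14-Cre, with a median of 2. At least 100 were found in 7 spots of S1pr2 fl/fl and in 0 of K14-Cre. In S1pr2 fl/fl much of the signal thus came from a few spots. At matched distances the ratio was 2.37 and 2.45.

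Genes known for the arrector pili muscle were near the floor. Of the list of 12, Des gave 85.6% of the UMIs in S1pr2 fl/fl and 86.5% in K14-Cre, and Des is also a skeletal muscle gene. Without Des, Synm and Tnc the list held 22 and 26 UMIs, at ratios of 1.71 (1.05 to 2.63) and 1.60 (1.03 to 2.39). At matched distances from the surface these were 1.15 and 2.27, against 1.75 and 1.69 for mural and endothelial genes without Fabp4. Over the touching spots that were not chosen, the reduced list was at 1.26 (0.723 to 2.14) and 2.39 (1.39 to 4.05). On these measures the reduced arrector list was thus the higher of the 2 in K14-Cre at matched distances. Itga8, the integrin with which arrector pili cells bind nephronectin, had 3 and 5 UMIs and was present in 6% of the smooth muscle spots of each section, against 1.24% and 1.11% of the remaining spots. Npnt, nephronectin, was at 0 UMIs in S1pr2 fl/fl and 10 in K14-Cre, where 1 spot held 5 of them. Hand2 had 0 and 5 UMIs, and Lgr6 was at 0 in both. Dermal sheath genes, of the contractile sheath around follicles, were at 2.18 (1.80 to 2.62) and 1.70 (1.33 to 2.14), from 123 and 80 UMIs. Only 7 and 9 of these 12 genes had a UMI. The most came from Abi3bp in S1pr2 fl/fl, with 39, and from Mylk in K14-Cre, with 21. Mylk is also in the contractile list and Itga5 in the vessel matrix list. The list was not reduced to unshared genes, so it does not tell dermal sheath from other smooth muscle. Whether arrector pili muscle was present could not be read from so few UMIs.

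Counted spot by spot, at least 2 UMIs of vessel genes (mural and endothelial genes without Fabp4) were found in 42 of 50 spots of each section, or 84%. The same held for 77.8% and 72.8% of the remaining spots, so this count set the smooth muscle spots little apart. At least 2 UMIs of the reduced arrector list were found in 8% and 12% of the smooth muscle spots and in 6.79% and 7.80% of the remaining spots. In S1pr2 fl/fl, 38 smooth muscle spots passed the vessel count alone, 4 passed both and 8 neither. In K14-Cre these numbers were 36, 6 and 8. In neither section did a spot pass the arrector count alone. The median smooth muscle spot held 10 vessel UMIs in S1pr2 fl/fl, from 0 to 38, and 9.5 in K14-Cre, from 0 to 29, while the median for the reduced arrector list was 0. The vessel list has 37 genes and the reduced arrector list 9, so the counts do not weigh both structures equally.

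Further cell types moved with the smooth muscle spots, and their part in the differences above was not tested. Adipocyte genes had a ratio of 2.22 (2.10 to 2.35) in S1pr2 fl/fl and 2.17 (2.08 to 2.26) in K14-Cre, but 1.14 and 1.17 at matched distances. Fibroblast genes were at 1.53 (1.49 to 1.58) and 1.41 (1.37 to 1.45), with 1.20 and 1.33 at matched distances. Macrophage genes were at 1.90 (1.77 to 2.04) and 1.40 (1.29 to 1.52), and mast cell genes at 3.04 (2.40 to 3.81) and 1.41 (0.960 to 2.02). At matched distances these were 1.28 and 1.14 for macrophage and 1.74 and 1.18 for mast cell genes. Before that weighting, all but the mast cell genes of K14-Cre had intervals above 1. Schwann cell and nerve genes were at 2.15 (1.82 to 2.52) in S1pr2 fl/fl and 0.908 (0.739 to 1.10) in K14-Cre, and at 1.42 and 0.763 at matched distances. Skeletal muscle genes were at 1.54 (1.51 to 1.58) in S1pr2 fl/fl and 1.00 (0.983 to 1.02) in K14-Cre, and under 1 in both at matched distances, at 0.639 and 0.751. Hair follicle genes were at 0.439 (0.385 to 0.498) and 0.384 (0.314 to 0.466), and at 0.697 and 0.596 at matched distances. Neutrophil genes were at 0.380 (0.357 to 0.405) and 0.391 (0.334 to 0.455), but at 0.880 and 0.877 at matched distances. Of their 993 UMIs in S1pr2 fl/fl, 644 and 330 came from S100a9 and S100a8, which keratinocytes also make and which are in the keratinocyte list too. Cxcr2, a chemokine receptor of neutrophils, was at 1.35 (0.532 to 2.86) and 0.912 (0.242 to 2.43), both intervals that include 1. Keratinocyte genes were at 0.357 (0.348 to 0.367) and 0.267 (0.249 to 0.285), and at 0.829 and 0.626 at matched distances. Of the compared keratinocyte genes, 17 of 19 and 13 of 14 were at most 0.5-fold, against 10.8% and 11.7% of all compared genes.

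Outside the lists, the 10 genes with the highest ratios shared by both sections were ranked. Sparcl1, a secreted matrix protein of vessels, was at 6.62 (4.90 to 8.83) and 3.25 (2.25 to 4.60). Igfbp4, which binds insulin-like growth factors, was at 3.95 (3.18 to 4.85) and 3.38 (2.63 to 4.29), and Tgfb3, a transforming growth factor, at 7.44 (5.37 to 10.1) and 2.53 (1.71 to 3.63). Without the largest group of touching spots, the Tgfb3 interval included 1 in both sections, as given further on. Sod3, the extracellular superoxide dismutase that arterial walls hold, was at 2.41 (1.96 to 2.93) and 2.79 (2.18 to 3.54), and Tns1, which ties actin to integrins, at 2.90 (2.30 to 3.61) and 2.57 (2.05 to 3.18). The others were Cyp2e1, Trf, C1ra, Crispld2 and Thrsp. Cyp2e1 and Thrsp are known from fat. The 5 lowest, Lce3a, Rab25, Hsd17b7, Aqp3 and Blmh, were between 0.184 and 0.234 in S1pr2 fl/fl, and Lce3a, of the cornified envelope, rested on 19 UMIs there and on 1 in K14-Cre. Ccn2, a matricellular gene of stretched muscle and fibroblasts, was picked out after its values were seen. It had 72 UMIs at a ratio of 10.1 (7.58 to 13.3) in S1pr2 fl/fl and 20 UMIs at 2.14 (1.27 to 3.41) in K14-Cre. Of the 72, 67 lay in 1 group of touching spots, described further on, and the other smooth muscle spots had 5, at 1.39 (0.446 to 3.31).

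The smooth muscle spots lay farther from the surface than the remaining spots, clearly so in S1pr2 fl/fl and by less in K14-Cre. Distance was counted in array pitches, the spacing of neighbouring spots, from each spot to the nearest of the 10% of kept spots richest in keratinocyte genes. The median was 6.08 pitches for the smooth muscle spots of S1pr2 fl/fl, against 3.61 for the remaining spots, and 4.36 against 3.46 in K14-Cre. Within 2 pitches of the keratinocyte-rich spots lay 1 smooth muscle spot of S1pr2 fl/fl (2%) and 7 of K14-Cre (14%), against 33.6% and 33.8% of the remaining spots. The distance to the spots richest in skeletal muscle genes was 2.65 pitches in both sections, against 4.36 and 3.46. In S1pr2 fl/fl the smooth muscle spots were thus farther from the surface and nearer to skeletal muscle than the remaining spots were, and in K14-Cre the gap to the surface was smaller.

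The share of spots that were chosen changed with depth. In S1pr2 fl/fl it was 0.289% of the 346 spots under 2 pitches from the keratinocyte-rich spots, 1.34% from 2 to 4 pitches, 7.94% from 4 to 6, 8.26% from 6 to 9 and 11.2% beyond. In K14-Cre the shares over the same steps were 2.29%, 5.60%, 8.46%, 0.752% and 16.0%, the last 12 of 75 spots. The share was thus lowest next to the surface in S1pr2 fl/fl, with overlapping intervals in its 3 deepest steps, and in K14-Cre it was lowest from 6 to 9 pitches, where 1 of 133 spots was chosen, with an interval of 0.0190% to 4.12% that overlaps the 0.925% to 4.66% of the step next to the surface.

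**Figure D3:**
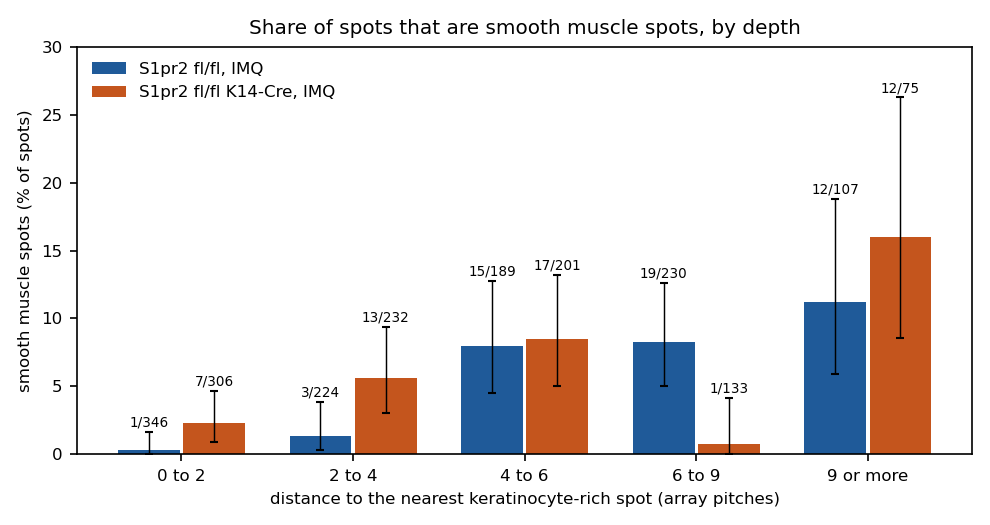
Share of kept spots that were smooth muscle spots (vertical axis, percent) by distance to the nearest keratinocyte-rich spot (horizontal axis, array pitches) in both sections, with 95% counting intervals. The share is 0.289% nearest to the surface and 11.2% in the deepest step of S1pr2 fl/fl, and K14-Cre has 0.752% from 6 to 9 pitches and 16.0% beyond.

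Many smooth muscle spots touched each other. Of the spots touching a smooth muscle spot, 27.3% in S1pr2 fl/fl and 23.8% in K14-Cre were smooth muscle spots too, against 4.56% and 5.28% of all kept spots. They formed 23 connected groups in S1pr2 fl/fl, of which the largest held 15 spots, the next 4, and 14 were single spots. K14-Cre had 29 groups, with 12 spots in the largest, 5 in the next and 23 single spots. The other smooth muscle spots of S1pr2 fl/fl were scattered through the middle of the section or formed a chain at its right end. In K14-Cre the deepest ones lay in a strip of tissue above the middle of the section.

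**Figure D4:**
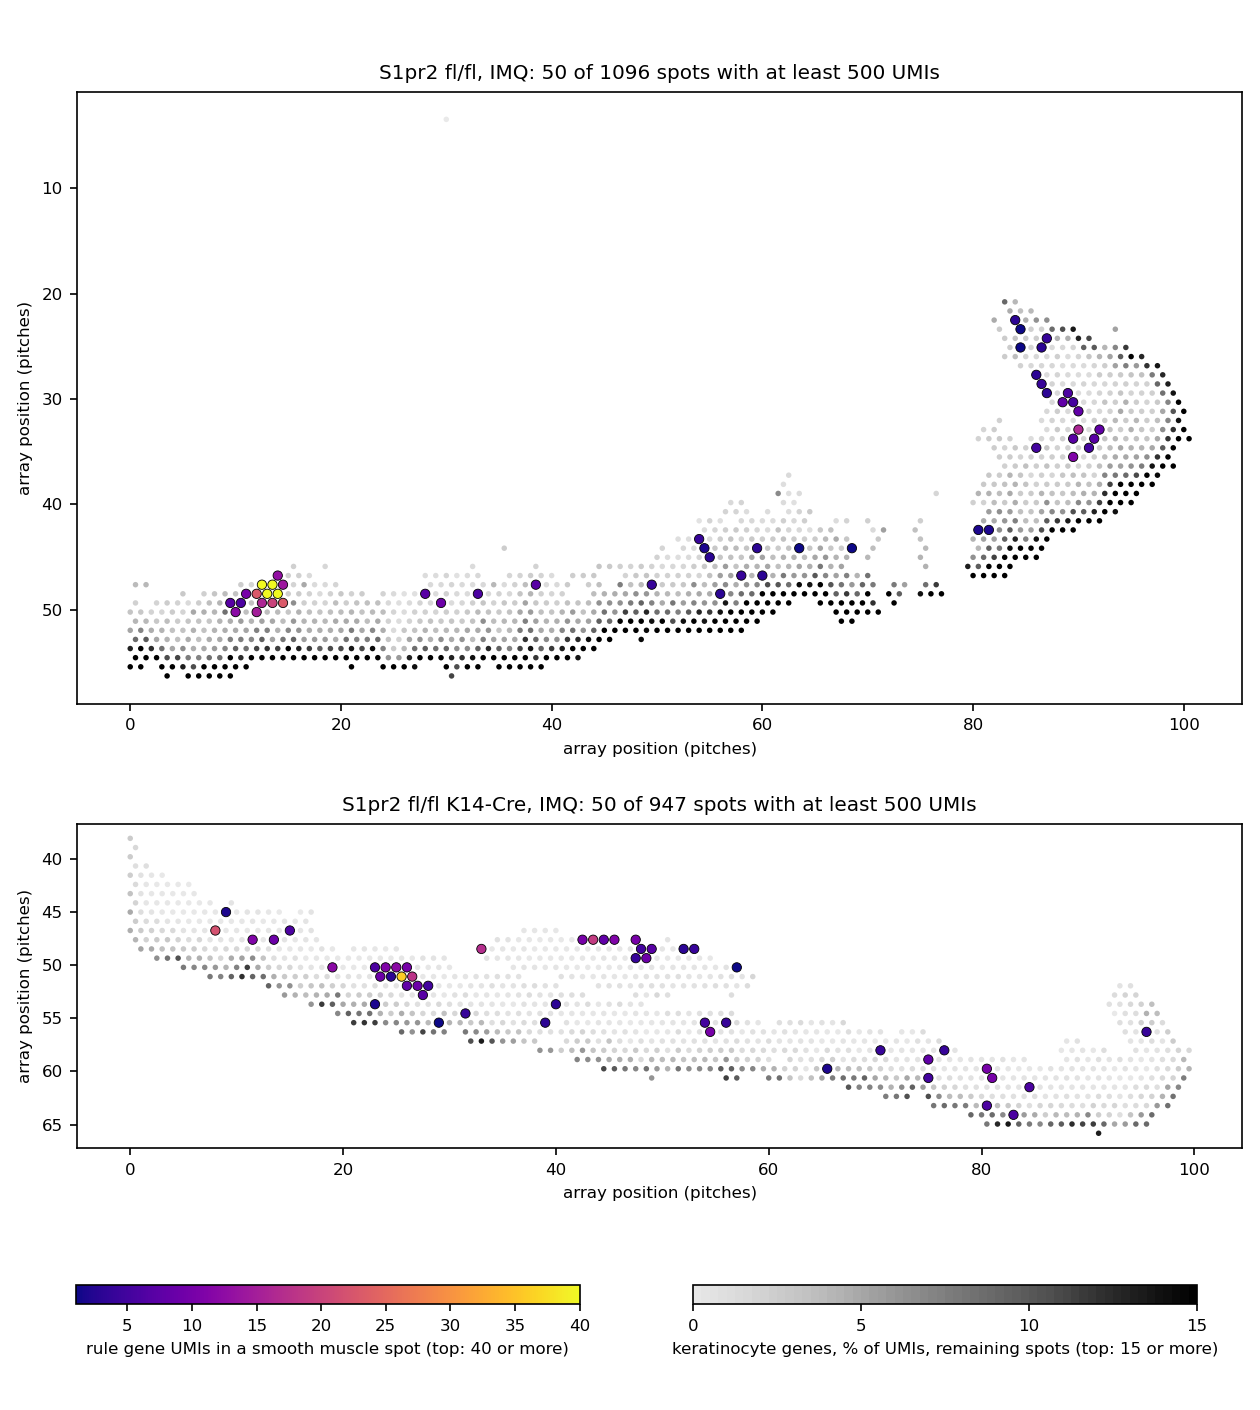
Position of every kept spot in both sections (both axes, array pitches). Large coloured circles are the 50 smooth muscle spots of each section, coloured by their rule gene UMIs, and small grey circles are the remaining spots, darker with a larger share of keratinocyte gene UMIs; the bright group of 15 spots at the left of S1pr2 fl/fl and the group of 12 in K14-Cre are the largest.

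The largest group of S1pr2 fl/fl held most of the rule gene UMIs of the chosen spots. Its 15 spots held 384 of these 553 UMIs (69.4%), of 1408 in all kept spots of the section, with 137 of Tagln, 122 of Acta2, 76 of Myh11, 27 of Cnn1 and 22 of Actg2, and lay between 4.36 and 7.81 pitches from the keratinocyte-rich spots. Its 4 highest spots held 68, 67, 49 and 41 rule gene UMIs. The same 4 spots held 11, 6, 7 and 4 UMIs of Myl9, 15, 25, 11 and 10 of Mgp, 14, 22, 19 and 7 of Eln, and 11, 9, 17 and 10 of Ccn2. Contractile, elastic and matricellular genes were thus high in the same spots. Compared with the other 35 smooth muscle spots, Myl9 was 5.77 (2.81 to 13.3) times as high in the group, from 51 against 9 UMIs. Mgp was 3.96 (2.60 to 6.24) times as high, Eln 3.78 (2.54 to 5.78) and Tgfb3 5.72 (2.67 to 14.1). Blood genes did not follow, at 0.934 (0.848 to 1.03), while skeletal muscle genes were at 1.37 (1.31 to 1.43). Of the epithelial genes, Krt15, a hair bulge keratin, was at 6.45 (2.70 to 18.7) and Flg, filaggrin, at 6.03 (4.34 to 8.58), both picked out after their values were seen. The keratinocyte list was at 1.40 (1.33 to 1.48), with Krt1 at 2.10 (1.69 to 2.61) and Krt5 at 1.85 (1.45 to 2.36), while Krt14 was at 1.05 (0.935 to 1.18), Krt17 at 0.802 (0.547 to 1.17) and the hair follicle list at 1.11 (0.860 to 1.44). Because the group is defined by the chosen spots, these values describe it and are no test.

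Outside that group, the smooth muscle spots of S1pr2 fl/fl were compared with the remaining spots again. Over the remaining spots of the section, the other 35 spots had a ratio of 2.46 (1.11 to 4.78) for Myl9, 5.39 (3.51 to 7.97) for Mgp and 2.17 (1.48 to 3.09) for Eln. Lmod1 was at 5.45 (1.69 to 13.6), Vwf at 3.31 (1.62 to 6.08) and Cald1 at 1.95 (1.18 to 3.04). The interval included 1 for S1pr1 at 1.97 (0.629 to 4.71), Rgs5 at 1.37 (0.496 to 3.02), Tgfb3 at 2.23 (0.947 to 4.48) and Crispld2 at 1.28 (0.739 to 2.06), as for Cdh5, Heyl and Ccn2 above. Their 22 contractile genes without the shared ones were at 1.51 (1.34 to 1.70), against 2.31 for all 50. Endothelial genes were at 2.58 (2.28 to 2.91) and blood genes at 5.72 (5.33 to 6.14). Vessel genes without Fabp4 were at 1.56 (1.36 to 1.78), near the contractile value, and mural genes at 0.863 (0.666 to 1.10), an interval that includes 1.

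The largest group of K14-Cre differed in its genes from the other 38 smooth muscle spots of the section. Its 12 spots held 134 rule gene UMIs, 76 of them Tagln, and in 1 spot 34 of 36 rule gene UMIs were Tagln. The group lay a median of 4.36 pitches from the keratinocyte-rich spots and 7.94 from the skeletal muscle-rich ones. Fibroblast genes were 2.00 (1.89 to 2.12) times as high as in the other 38 smooth muscle spots, with Col1a1, the main collagen, at 3.12 (2.71 to 3.59). Macrophage genes were at 2.16 (1.84 to 2.54), with the complement gene C1qa at 3.03 (2.28 to 4.04). Adipocyte genes were at 0.183 (0.155 to 0.214) and blood genes at 0.317 (0.214 to 0.456). Endothelial genes were at 0.561 (0.454 to 0.688), with Fabp4, also a fat gene, at 16 against 291 UMIs. Vessel genes without Fabp4 were at 0.983 (0.796 to 1.21), and elastic and vessel matrix genes at 1.21 (1.04 to 1.41). The group was therefore richer in fibroblast and macrophage genes and poorer in fat and blood genes than the other chosen spots, while its vessel genes other than Fabp4 had an interval that includes 1. Myofibroblast genes were at 3.12 (2.14 to 4.55), the contractile list at 0.862 (0.788 to 0.943), its 22 genes without Tpm1, Tpm2 and Des at 1.38 (1.19 to 1.59), and skeletal muscle genes at 0.497 (0.475 to 0.520). Genes of developing muscle were at 5.67 (3.88 to 8.41), led by Myl4, an embryonic light chain with 19 against 8 UMIs, and Myh8, the perinatal myosin with 17 against 9. Next to these, Ppp1r14a was at 2.62 (1.59 to 4.30) and Myl9 at 1.61 (0.847 to 2.97), an interval that includes 1. In the other 38 spots, Cald1 at 1.32 (0.835 to 1.99), Fbn1 at 1.33 (0.961 to 1.81) and Tgfb3 at 1.72 (0.985 to 2.82) over the remaining spots had intervals that include 1.

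The spots touching a smooth muscle spot without being chosen were compared next. The rule genes were 8.06 (6.80 to 9.59) and 7.53 (6.30 to 9.02) times as high in the smooth muscle spots as in the touching spots, and in the touching spots they were 2.36 (1.99 to 2.79) and 2.64 (2.17 to 3.19) times as high as in spots farther away. The first pair of values follows from the choice of the spots and is a description only. Endothelial genes were shared with the neighbours. They were 1.30 (1.18 to 1.44) and 1.68 (1.52 to 1.84) times as high in the smooth muscle spots as in the touching spots, and 2.49 (2.33 to 2.65) and 1.61 (1.51 to 1.71) times as high in the touching spots as farther away. Blood genes were 1.93 (1.81 to 2.06) and 2.02 (1.75 to 2.32) times as high as in the touching spots, and elastic genes 1.50 (1.39 to 1.63) and 1.72 (1.58 to 1.87) times. The 22 contractile genes stood at 1.58 (1.46 to 1.72) and 1.54 (1.41 to 1.67). Skeletal muscle genes were lower in the smooth muscle spots than next to them, at 0.835 (0.816 to 0.855) and 0.815 (0.800 to 0.830), and higher in the touching spots than farther away, at 2.05 (2.02 to 2.07) and 1.30 (1.29 to 1.31).

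Between the sections, the smooth muscle spots were compared with each other, with the same ratio in the remaining spots beside it. With 1 section each, these values compare 2 libraries and not the genotypes. Over 1322 genes with at least 50 UMIs in both sets together, 6.88% were at least 2-fold higher in K14-Cre and 11.0% at most 0.5-fold. The summed rule genes differed little, with a log2 ratio of K14-Cre over S1pr2 fl/fl of -0.14 (-0.33 to 0.05), against 0.02 in the remaining spots. Their makeup differed. Acta2 was at -0.95 (-1.36 to -0.55), Myh11 at -0.94 (-1.51 to -0.41) and Actg2 at -1.07 (-2.22 to -0.03), while Tagln was at 0.50 (0.23 to 0.77) and Cnn1 at 0.37 (-0.34 to 1.08). The remaining spots had values of the same sign, -0.75, -0.77, -0.70, 0.70 and 0.73 in that order. All of these genes helped to choose the spots, so the values describe the makeup of the chosen spots and nothing was read from them.

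Outside the rule, Myl9 had a log2 ratio of 0.04 (-0.54 to 0.60) and the contractile list 0.33 (0.25 to 0.40), against 0.96 in the remaining spots. Without Tpm1, Tpm2 and Des, which skeletal muscle shares, the list was at 0.24 (0.10 to 0.38), against 0.56. Skeletal muscle genes themselves were at 0.98 (0.95 to 1.02), against 1.61, and their part in the contractile values was not tested. Of the 18 contractile genes compared, 1 was at least 2-fold higher in K14-Cre and none at most 0.5-fold. Over all compared genes these shares were 6.88% and 11.0%. Without the largest group of each section the value of the whole contractile list was 0.81 (0.70 to 0.92). The list without the 3 shared genes was then at 2974 CPM in S1pr2 fl/fl and 4881 CPM in K14-Cre. Endothelial genes were at 0.47 (0.31 to 0.63), against 0.70 in the remaining spots, and mural genes at -0.22 (-0.56 to 0.12), against -0.09. Outside the largest groups, endothelial genes were at 2803 CPM in S1pr2 fl/fl and 4803 CPM in K14-Cre. Mural genes were at 665 and 808 CPM there, from 66 and 93 UMIs. The mural interval over all smooth muscle spots includes 0 and none was computed outside the groups, so no direction was read for mural genes. Mgp and Eln had values of -0.40 (-0.81 to 0.01) and -0.20 (-0.57 to 0.17), against 0.94 and 0.75 in the remaining spots. Ccn2 was at -1.52 (-2.31 to -0.79) against 0.72, and Mef2c at -2.58 (-4.10 to -1.35) against 0.26. Without the largest group of each section, the values of Mgp, Eln, Ccn2 and Myl9 were on the other side of 0 or farther from it. Mgp was then at 0.53 (-0.17 to 1.26), Eln at 0.99 (0.38 to 1.64), Ccn2 at 0.92 (-0.72 to 2.80), from 5 and 11 UMIs, and Myl9 at 1.57 (0.46 to 2.82). Mef2c stayed below 0, at -1.95 (-3.56 to -0.58).

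**Figure D5:**
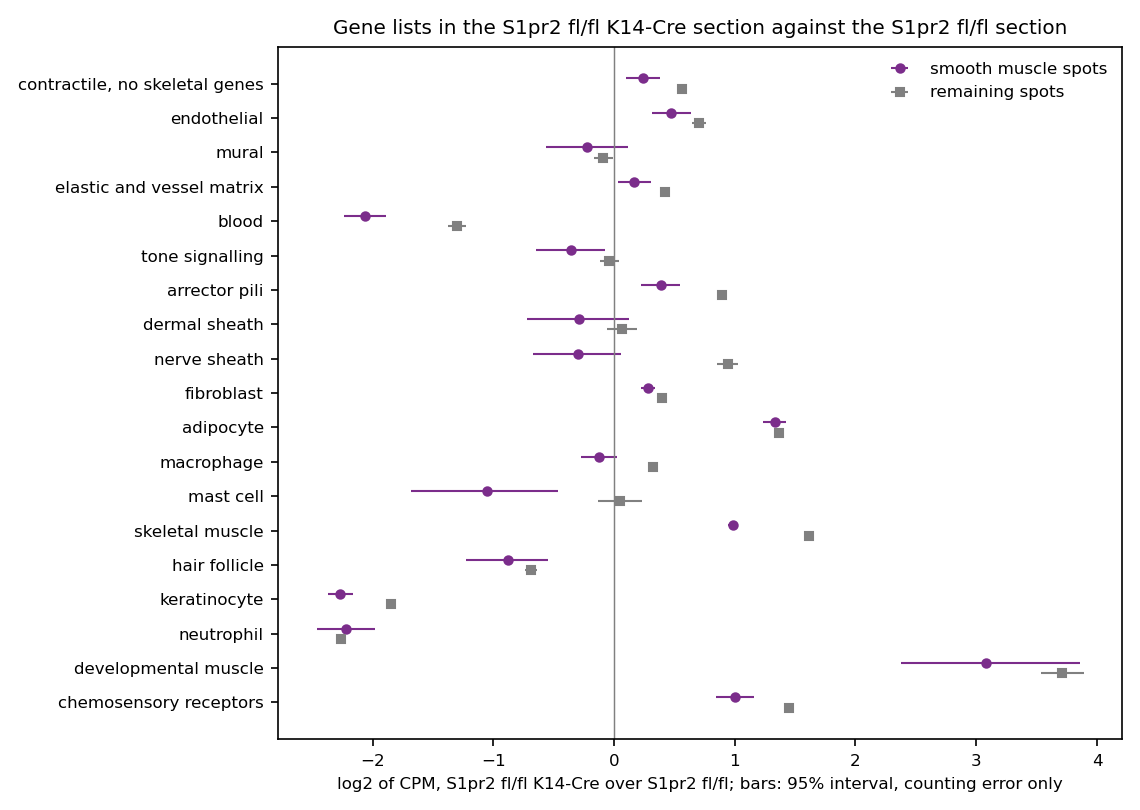
Log2 ratio of the K14-Cre section over S1pr2 fl/fl for gene lists in the smooth muscle spots (circles) and in the remaining spots (squares), with 95% counting intervals. Blood genes lie at -2.06 in the smooth muscle spots and at -1.30 in the remaining spots, and adipocyte genes at 1.33 and 1.36.

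Genes with the largest differences between the sections were ranked next. The 10 highest log2 ratios ran from 1.73 to 2.41 and held 1 gene of the contractile list, Pdlim3, at 1.74 (1.15 to 2.37) against 1.81 in the remaining spots. They also included Cilp, a cartilage matrix gene, at 2.41 (1.63 to 3.27), Myh4, the fast skeletal myosin, at 2.17 (2.04 to 2.30), and the fat genes Car3 at 1.86 (1.70 to 2.02) and Pnpla2 at 1.87 (1.17 to 2.62). In the remaining spots these 4 were at 1.80, 2.54, 2.27 and 0.44. Tgoln1 and Psme4, at 1.87 and 1.84 and also among the 10, were at -0.25 and -0.04 there. The 10 lowest ran from -4.06 to -3.12 and included the cornified layer genes Casp14, Hrnr, Flg and Lor, with S100a9, a neutrophil and keratinocyte alarmin, and Krt1, an epidermal keratin, both at -3.12. Blood genes were at -2.06 (-2.24 to -1.89), against -1.30 in the remaining spots, keratinocyte genes at -2.27 against -1.84, and adipocyte genes at 1.33 against 1.36. Chemosensory receptor genes, which skin should hardly express, gave 521 and 831 UMIs over 1229 genes, a log2 ratio of 1.00 (0.84 to 1.16), against 1.45 in the remaining spots. The level that genes show without expression was thus higher in the K14-Cre library, and its part in the differences of sparse genes was not tested.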

How the data were processed

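Formalin-fixed back skin of 2 mice was profiled with Visium CytAssist probes, 1 section per genotype. The authors processed the images and reads in Partek Flow, and the file header names Space Ranger 3.0.0 with mm10. The authors deposited raw UMI counts for 19465 genes in each spot over tissue, unfiltered and not normalised, with the spot positions. No spots or doublets were removed before the minimum of 500 UMIs was set.

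The 50 smooth muscle spots of each section were pooled, and the UMIs of each gene per 1000000 pooled UMIs (CPM) were divided by those of the pooled remaining spots. Ratios have exact conditional binomial 95% intervals, shares exact Clopper-Pearson intervals, and both cover counting error only. With 1 section per genotype no p-value was computed. A gene counts as higher or lower past a ratio of 2 or 0.5, among genes with at least 200 UMIs in the section, or 50 over both sets of smooth muscle spots. Symbols on more than 1 row (11) were kept apart. Distances are array pitches to the nearest of the 10% of spots richest in keratinocyte or skeletal muscle genes, and touching spots are the up to 6 next to a spot.

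All genes of the marker lists could be named, except for 1 that is not reported here. Beside them, the 10 highest and 5 lowest ratios shared by both sections outside the lists, and the 10 highest and 10 lowest log2 ratios between the sections, were named. The spots, lists and tests were chosen with earlier results of these data known. Python 3.11.15, scipy 1.17.1 and, for TMM factors, edgeR 4.0.16 in R 4.3.3 were used. The intervals were tried on simulated pooled counts. These held counting error only, without the choice of spots or the clumping of UMIs in touching spots. Alternatives concerned the number of spots, the UMI minimum, the ranking genes, pooling, normalisation, gene minimum, depth and the surface limit.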

Additional observations from a re-analysis of the deposited data

Results flagged for a closer look

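The 186 spots of S1pr2 fl/fl with fewer than 500 UMIs, which entered no comparison, held 11 UMIs of the rule genes, and the 34 such spots of K14-Cre held 2. For 6 genes the ratio of the smooth muscle spots over the remaining spots lay above 1 in S1pr2 fl/fl and below 1 in K14-Cre, each with an interval that leaves 1 out, and these differences between the sections were not tested. Mef2c, a muscle and endothelial transcription factor, was at 2.36 and 0.330. The other 5 are genes of fast skeletal muscle. Myh1 was at 2.10 and 0.894, Myl1 at 1.51 and 0.854, Mylpf at 1.46 and 0.927, Pvalb at 1.33 and 0.896, and Tnni2 at 1.84 and 0.794. At matched distances from the surface the skeletal muscle list was under 1 in both sections, at 0.639 and 0.751.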

How the results depend on the processing

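No paired analysis was possible because each genotype was 1 section. Of 117 values recomputed under another setting, 74 stayed within the counting interval of the reported value, or within 1.5 times for a count of genes and within 1 pitch for a distance, 40 moved farther and 3 with an interval that leaves 1 out turned over. The K14-Cre arrector ratio, whose interval includes 1, also crossed 1 under 4 settings. The S1pr2 fl/fl count of 314 genes was 448 with the first 25 spots, 211 with 100 and 461 without the largest group, each within 1.5 times. Values are given for S1pr2 fl/fl first. The ratios over the remaining spots were 1.89 and 1.22 for the contractile list, 2.14 and 2.02 for the vessel list and 1.39 and 0.978 for the arrector list. The reported genes at least 2-fold higher numbered 314 and 151, and between the sections 236 genes were past the fold, with log2 ratios of 0.33 (contractile) and 0.34 (vessel).

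With remaining spots weighted to the same distances, a choice made after seeing the data, 3 ratios turned over: the contractile list gave 0.917 and 0.956 and the arrector list 0.676 in S1pr2 fl/fl, with 0.762 in K14-Cre. The vessel list gave 1.63 and 1.42. With the first 25 spots the contractile and vessel ratios of S1pr2 fl/fl were 2.11 and 2.32, the K14-Cre arrector ratio 0.777 and its gene count 255, and between the sections 0.18 and 101 genes. With 100 spots the S1pr2 fl/fl contractile ratio was 1.67, K14-Cre had 60 genes, a vessel ratio of 1.74 and an arrector ratio of 1.06, and between the sections 0.51 and 474 genes. Ranking without the actins gave a contractile ratio of 1.78 in S1pr2 fl/fl and 0.43 between the sections. Averaging the CPM of each spot gave 1.47, 1.96 and 1.22 for contractile, vessel and arrector lists in S1pr2 fl/fl and 1.79 for vessels in K14-Cre.

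The gene counts moved most with the gene minimum. A minimum of 50, or of 20 between the sections, gave 1171, 858 and 1091 genes, and no minimum gave 2955, 2279 and 9161, since more sparse genes were compared. Thinning each spot to 500 UMIs gave 0.41 and 20 genes between the sections. Without the largest group of touching spots, a choice made after seeing their positions, the contractile ratio of S1pr2 fl/fl was 1.40, the vessel ratios 1.87 and 2.25, and the values between the sections 0.81, 0.69 and 156 genes. Without Tpm1, Tpm2 and Des in the contractile list, Fabp4 in the vessel list and Des, Synm and Tnc in the arrector list, chosen after seeing the data, the contractile ratios were 2.31 and 1.85, the arrector ratios 1.71 and 1.60, and the K14-Cre vessel ratio 1.86. For the settings other than the gene minimum, the cause was not tested. The median distance of the smooth muscle spots to the surface exceeded that of the remaining spots by 2.48 and 0.895 pitches and stayed above it under every setting run, at 0.536 in K14-Cre with 100 spots. A minimum of 1000 UMIs, leaving out small islands of tissue and TMM factors kept every direction except that of the K14-Cre arrector ratio, which was 1.00 with that minimum and 1.05 without the largest group.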
